A study of Rattus norvegicus with 4 samples.

Results

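The 4 genes described here encode the troponin complex of the neonatal heart, namely Tnni1 and Tnni3 (troponin I), Tnnt2 (troponin T) and Tnnc1 (troponin C). They were selected by name from the 15731 genes listed in the deposited values, and they were picked from genes whose levels in these same libraries were already known, so their levels and changes are a description and were not tested. Cultures of ventricular cardiomyocytes from Wistar wild type rats of postnatal day 1 received 1 of 4 miRNA mimics, either hsa-miR-25-3p, hsa-miR-93-5p, hsa-miR-106b-5p or, for the control, the worm miRNA cel-miR-67, by transfection with Lipofectamine RNAiMAX. RNA was harvested 72 h later. The protocols give the dose as 25 nM in one place and as 25 mM in another, and also name day 0 as the age. Each of the 4 conditions is 1 library, so no difference between mimics has a replicate check. The cultures are primary cells enriched by plating and can hold other heart cells, and the sources used here do not say how many animals were pooled.

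Troponin is the calcium switch of the thin filament. Troponin C binds calcium, troponin I holds the filament in the inhibited state until calcium arrives, and troponin T ties both to tropomyosin. The fetal heart makes the slow skeletal troponin I encoded by Tnni1, and around and after birth it changes over to the cardiac troponin I encoded by Tnni3, whose extra N-terminal segment is a substrate of protein kinase A. Hearts of newborn rats carry both forms, so the balance of Tnni1 and Tnni3 is a common reading of how far heart muscle has matured.

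The troponin I pattern of the miR-25 library differs from that of the miR-106b and miR-93 libraries. For this reason the sequences of the rat miRNAs that correspond to the 3 mimics are shown. They were read from RefSeq on the GRCr8 build, in which all 3 lie on the minus strand, at chr12:22157103-22157123, chr12:22156894-22156916 and chr12:22156652-22156673. Capitals mark the seed, bases 2 to 8 from the 5′ end. Matches of the seeds in troponin transcripts were not examined.
rno-miR-106b-5p: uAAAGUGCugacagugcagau
rno-miR-93-5p: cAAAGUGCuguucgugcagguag
rno-miR-25-3p: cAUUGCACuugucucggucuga
The first and second share the seed AAAGUGC, whereas miR-25 has the seed AUUGCAC.

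Levels are given in RPKM, which divides the reads of a gene by its exon length and by the size of the library, as the authors computed them. Between 14525217 and 18167372 reads per library fell on the genes whose whole reads could be recovered from the RPKM values, which was 58.4% to 64.1% of the library sizes that the values imply. These implied sizes are far above the read number per sample that the study's methods give, and the reason was not found. The read counts and counting intervals rest on the implied sizes, and would be smaller and wider at a lower depth. Fold changes are ratios of RPKM over the cel-miR-67 library. Intervals are 95% exact (Clopper-Pearson) intervals from the recovered reads. They cover counting error only, and leave out all differences between cultures. A gene with RPKM above 1.0 in both libraries was counted as higher or lower when it differed by 1.3-fold, which is 0.38 on the log2 scale. Heart muscle markers were abundant in every library (summed RPKM of 11 markers between 5299.9 and 10233). The markers of skeletal muscle, in which Tnni1 is also made, stood at a summed RPKM of 0.797 to 1.14 over the 3 of 10 that were matched.

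Tnni3, the cardiac troponin I, showed the widest range of the 4 genes. Its RPKM was 351 in the control (6391 reads), 543 after miR-106b (12955 reads), 495 after miR-93 (10837 reads) and 15.9 after miR-25 (347 reads). The miR-106b and miR-93 libraries lay above the control, and the miR-25 library lay far below the other 3. With miR-25 the level was 22.1-fold below the control (log2 fold change -4.47, interval -4.63 to -4.31). Of the 11198 genes compared between these libraries, Tnni3 had the lowest ratio. Tecrl followed at -3.70 and Myom2 at -3.53 on the log2 scale. This rank leaves out every gene not above the RPKM limit in both libraries, and so any gene that fell below it with miR-25. Emcn, an endothelial marker below the limit in both libraries, was at -4.91 (interval -10.27 to -2.3). With miR-106b the level of Tnni3 was 1.54-fold above the control (log2 0.63, interval 0.58 to 0.67). With miR-93 it was 1.41-fold above (log2 0.49, interval 0.45 to 0.54). Between mimics, without use of the control library, miR-25 stood 34.2-fold below miR-106b (log2 -5.10, interval -5.25 to -4.94) and 31.2-fold below miR-93 (log2 -4.96, interval -5.12 to -4.81). The miR-93 and miR-106b libraries, which share a seed, differed by -0.13 (interval -0.17 to -0.10).

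Tnni1, the slow skeletal troponin I of the fetal heart, moved in the same directions over a much narrower range. The control library held 413 RPKM, the miR-106b library 512, the miR-93 library 499 and the miR-25 library 247. The order of the libraries was therefore the same as for Tnni3, with miR-106b highest and miR-25 lowest. With miR-25 Tnni1 was 1.67-fold below the control (log2 -0.74, interval -0.77 to -0.70). The log2 fold changes of 0.31 for the miR-106b mimic (interval 0.29 to 0.34) and 0.27 for the miR-93 mimic (interval 0.25 to 0.30) stayed inside the 1.3-fold limit. Relative to the median of the 11 heart muscle markers they lay outside it, at 0.56 and 0.78, and the value with miR-25 came inside it, at -0.21.

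**Figure D1:**
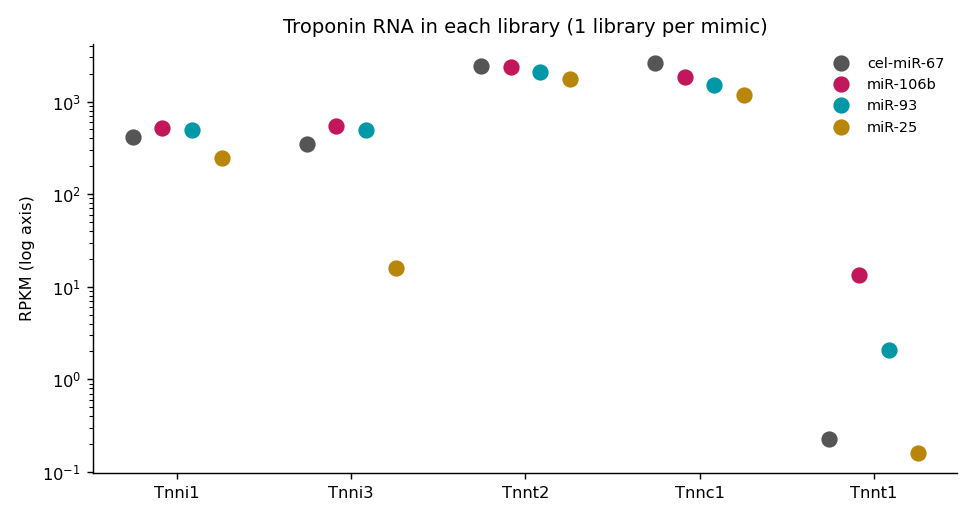
RPKM (log axis) of the 4 troponin genes and of Tnnt1 in the cel-miR-67, miR-106b, miR-93 and miR-25 libraries, 1 point per library. Tnni3 drops to 15.9 with miR-25 against 351 in the control, and Tnnt1 stands at 13.5 with miR-106b against 0.228 in the control.

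The ratio of slow skeletal to cardiac troponin I does not depend on library size. Tnni1 RPKM over Tnni3 RPKM was 1.17 in the control (interval 1.14 to 1.21) and 15.6 in the miR-25 library (14.0 to 17.4). It was 0.943 in the miR-106b library (0.924 to 0.963) and 1.01 in the miR-93 library (0.986 to 1.03). The 2 forms were thus near parity in 3 libraries, and slow skeletal troponin I prevailed in the miR-25 library. Put as a share, Tnni3 made up 46.0% of troponin I RPKM in the control (interval 45.3 to 46.7) and 6.03% in the miR-25 library (5.44 to 6.67), while the miR-106b library had 51.5% (50.9 to 52.0) and the miR-93 library 49.8% (49.2 to 50.3). On the log2 scale the ratio of Tnni1 to Tnni3 differed from the control by 3.73 with miR-25 (exact conditional interval 3.57 to 3.89) and by -0.32 for miR-106b (-0.37 to -0.26). For miR-93 this difference was -0.22 (-0.27 to -0.17). In the miR-25 library the lower Tnni3 level was not matched by a higher Tnni1 level, since both genes were below the control. The ratio within a library rests on the gene lengths behind the RPKM, 1842 bases for Tnni1 and 802 for Tnni3. Counted as reads and not per length, it was 2.7 in the control and 35.8 with miR-25, while the difference between libraries is the same on both scales.

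The sum of Tnni1 and Tnni3 was 764 RPKM in the control, 1055 and 994 in the miR-106b and miR-93 libraries, and 263 in the miR-25 library. Total troponin I transcript was therefore 2.90-fold lower with miR-25 than in the control, and higher by 0.47 (miR-106b) and 0.38 (miR-93) on the log2 scale. Set against Tnnt2, with which troponin I forms the complex, the sum gave a ratio of 0.314 in the control, 0.448 for miR-106b, 0.474 for miR-93 and 0.150 for miR-25. Tnni3 alone stood at 14.4% of the Tnnt2 RPKM in the control and at 0.907% with miR-25, and Tnni1 at 17.0% and 14.1% in these libraries.

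Tnnt2, the troponin T of heart muscle, was the steadiest of the 4 genes. The control library held 2433 RPKM, the miR-106b library 2356, the miR-93 library 2097 and the miR-25 library 1749.9, so that each mimic library lay below the control on this scale. The log2 fold changes were -0.05 (interval -0.06 to -0.03) for miR-106b, -0.21 (-0.23 to -0.20) for miR-93 and -0.48 (-0.49 to -0.46) for miR-25. The value with miR-25 was past the 1.3-fold limit with the library sizes of the authors. It was inside the limit when the listed genes were scaled to the same summed RPKM, at -0.24. Relative to the median heart muscle marker the direction turned for all 3 mimics, with Tnnt2 at 0.20 (miR-106b), 0.30 (miR-93) and 0.05 (miR-25).

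Tnnc1, the calcium sensor, was below the control with every mimic. The control library held 2579.7 RPKM, the miR-106b library 1847, the miR-93 library 1504 and the miR-25 library 1172. The log2 fold change was -0.48 (interval -0.50 to -0.46) for miR-106b, -0.78 (-0.80 to -0.76) for miR-93 and -1.14 (-1.16 to -1.12) for miR-25, in each case past the limit. Relative to the median heart muscle marker the value was -0.61 with miR-25, and it was inside the limit with miR-106b, at -0.23, and with miR-93, at -0.27. The ratio of Tnnt2 to Tnnc1 was 0.943 in the control and 1.28, 1.39 and 1.49 in the miR-106b, miR-93 and miR-25 libraries. In these cultures, fewer heart muscle cells and less transcript per cell cannot be told apart.

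**Figure D2:**
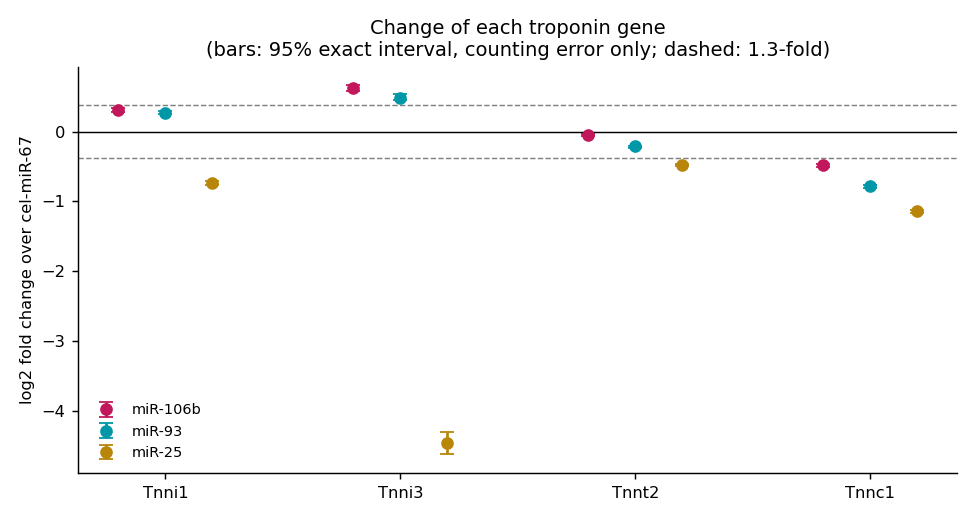
Log2 fold change over the cel-miR-67 library of Tnni1, Tnni3, Tnnt2 and Tnnc1 with each mimic. Bars are 95% exact intervals for counting error only, and dashed lines mark 1.3-fold. All 4 genes are below the control with miR-25, with Tnni3 at -4.47, and Tnni1 and Tnni3 are above it with miR-106b and miR-93.

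Past the 1.3-fold limit, 1 of the 4 genes was higher (Tnni3) and 1 was lower (Tnnc1) with miR-106b, where 11.9% of all 11296 genes compared were higher and 12.7% lower. With miR-93 the same split of 1 and 1 was seen, beside 15.1% and 15.6% of 11280 genes. With miR-25 none was higher and 4 were lower, beside 19.3% and 22.6% of 11198 genes. The median log2 fold change of the 4 genes was 0.13 for miR-106b, 0.03 for miR-93 and -0.94 for miR-25, and that of all genes compared was -0.003, -0.002 and -0.012. The 5th and 95th percentiles of all genes were -0.62 and 0.60 for miR-106b, -0.76 and 0.67 in the miR-93 comparison, and -1.0 and 0.85 in that of miR-25. Tnni3 ranked 494th from the highest with miR-106b, above the 95th percentile, and 1116th with miR-93, below it. The 4 genes were chosen with these comparisons in view, and the comparisons share the control library.

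**Figure D3:**
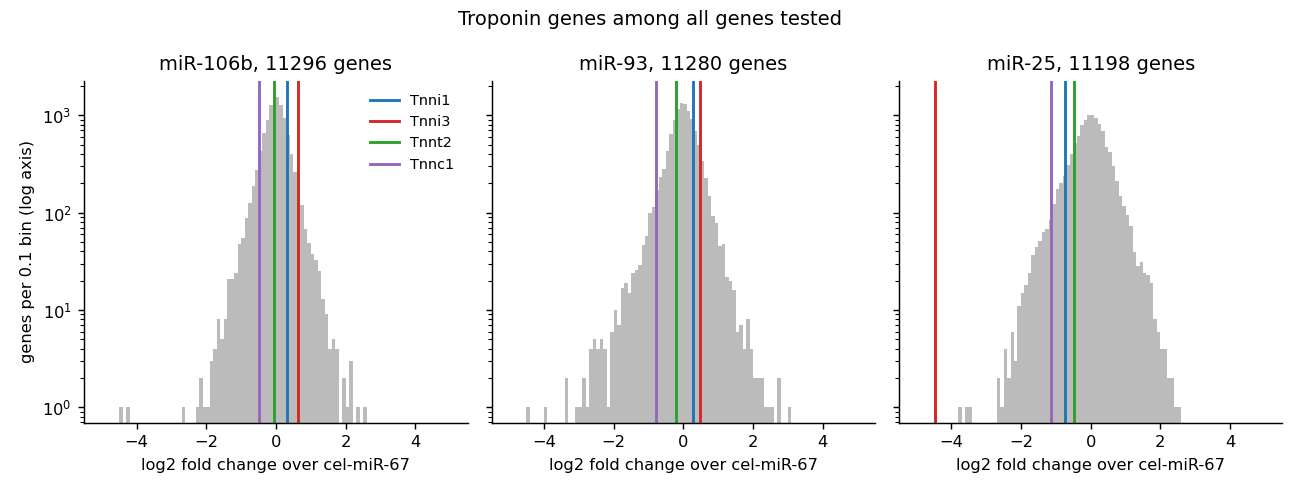
Number of genes (log axis) per bin of log2 fold change over cel-miR-67, for all genes with RPKM above 1.0 in both libraries, with 1 panel per mimic. Coloured lines mark the 4 troponin genes. Tnni3 lies to the right of most genes with miR-106b (0.63) and miR-93 (0.49), and at the far left end with miR-25 (-4.47).

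Of the other troponin genes, 3 were found among the listed genes. Tnnt1, the slow skeletal troponin T, was nearly silent in the control library (RPKM 0.228, 6 reads) and with miR-25 (0.158, 5 reads), and stood at 2.08 after miR-93 (66 reads) and 13.5 after miR-106b (465 reads). The control and miR-25 libraries differed by less than counting error (log2 -0.53, interval -2.58 to 1.45), whereas miR-106b was 59.1-fold (interval 26.9 to 162) and miR-93 9.13-fold (3.98 to 25.8) above the control. It passed no limit on RPKM in the control and was not counted among the changed genes. Here the mimics with a shared seed differed, with miR-93 at 6.47-fold below miR-106b. Even with miR-106b the level was small beside the 2356 RPKM of Tnnt2. Tnnt3 and Tnnc2, the fast skeletal troponins T and C, stayed between 0 and 8 reads in every library. Tnnt3 had 0 reads in the control, which allows an RPKM of up to 0.0977 (3 reads).

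Promoter windows of the troponin I genes are shown because these genes are the pair that changes over in development. They come from RefSeq on GRCr8, from 250 bases before to 50 after the annotated start, on the plus strand at chr13:49781279-49781578 for Tnni1 and chr1:78342321-78342620 for Tnni3. Capitals mark letters of a GATA motif (AGATAA or TTATCT), an E-box (CANNTG), an M-CAT motif (CATTCC or GGAATG) or a TATA box (TATAAA or TTTATA), searched on both strands, with no overlap between motifs in either window.
Tnni1: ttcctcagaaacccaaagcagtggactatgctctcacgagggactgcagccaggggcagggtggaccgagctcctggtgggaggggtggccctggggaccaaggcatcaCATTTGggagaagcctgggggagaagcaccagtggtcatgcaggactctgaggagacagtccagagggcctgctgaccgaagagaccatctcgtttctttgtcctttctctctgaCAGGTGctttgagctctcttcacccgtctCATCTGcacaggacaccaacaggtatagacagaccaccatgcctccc
Tnni3: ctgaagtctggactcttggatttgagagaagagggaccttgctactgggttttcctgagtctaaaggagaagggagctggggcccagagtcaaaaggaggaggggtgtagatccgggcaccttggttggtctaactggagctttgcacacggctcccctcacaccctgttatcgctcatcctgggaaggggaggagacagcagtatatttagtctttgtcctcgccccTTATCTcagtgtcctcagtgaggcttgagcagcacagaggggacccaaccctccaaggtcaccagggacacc
The Tnni3 window holds 1 GATA motif and no E-box, and the Tnni1 window holds 3 E-boxes and no GATA motif. Of all 33469 promoter windows, 11.6% hold the GATA motif, 72.1% an E-box, 14.2% an M-CAT motif and 14.2% a TATA box.

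Pairs of genes that, like the troponins I, change from an early to a late form in the maturing heart give the setting for the troponin I ratio. With miR-25 the log2 ratio of early to late form was above the control in 6 of 7 pairs, a count that includes Tnni1 to Tnni3 itself. Myh7 to Myh6 (myosin heavy chains) was above it by 0.32, Acta1 to Actc1 (sarcomeric actins) by 0.85, and Slc2a1 to Slc2a4 (glucose transporters) by 0.30. Of the myosin light chains, Myl4 to Myl3 was above it by 1.19 and Myl7 to Myl2 by 0.37. Hexokinase moved the other way, with Hk1 to Hk2 at -0.93. The difference of 3.73 for Tnni1 to Tnni3 stood above all of these. That pair was picked with its value known, and shifts of such ratios were not measured over other gene pairs. Late sarcomere genes were lower with miR-25 as well. On the log2 scale Myh6 was at -0.98, Actc1 at -0.51, Myl3 at -1.08 and Myl2 at -1.07, against -4.47 for Tnni3. Most early forms were also below the control, with Tnni1 at -0.74, Myh7 at -0.66, Myl7 at -0.70, Slc2a1 at -0.68 and Hk1 at -0.45. Acta1 (0.33) and Myl4 (0.12) were above it. In the pairs of Myh7, Myl7 and Slc2a1 both forms were thus lower, the late form further.

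With miR-106b and miR-93 the pairs did not move together. The ratio of Tnni1 to Tnni3 was slightly below the control, at -0.32 and -0.22. The ratio of Myl7 to Myl2, the atrial and ventricular regulatory light chains, was above it by 2.03 and 3.49, and that of Myl4 to Myl3 by 1.85 and 0.94. Myh7 to Myh6 was at 0.44 and -0.17, and Acta1 to Actc1 at 0.17 and -0.42. Slc2a1 to Slc2a4 was at 1.16 and 1.02, and Hk1 to Hk2 at -0.74 and -0.83.

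**Figure D4:**
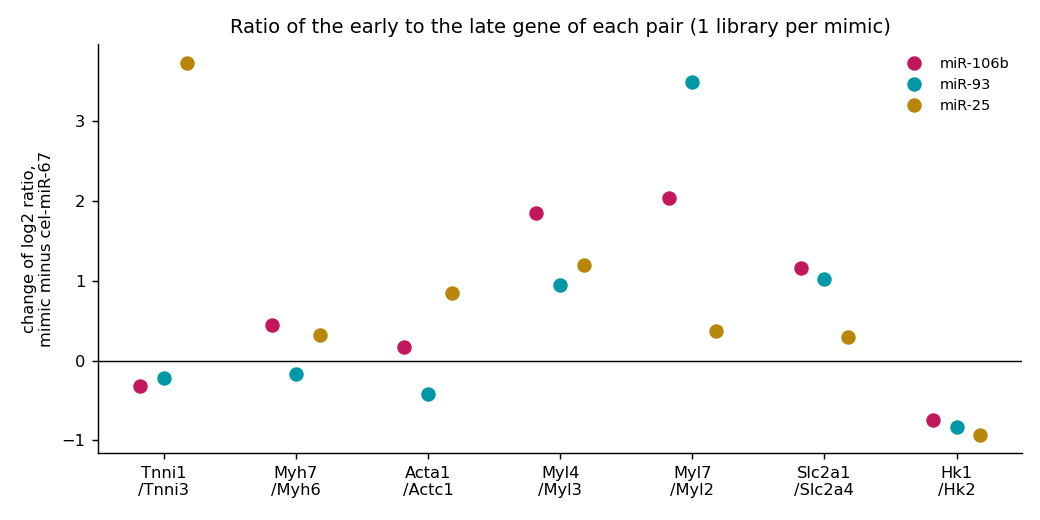
Change of the log2 ratio of the early to the late gene of 7 pairs, mimic minus cel-miR-67, 1 point per mimic library. The ratio of Tnni1 to Tnni3 stands at 3.73 with miR-25 and slightly below 0 with miR-106b and miR-93, while Myl7 to Myl2 is highest with miR-93 (3.49).

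Genes of the thick filament, whose myosin meets actin when the troponin switch is on, were mostly lower with miR-25. Of 10 thick filament genes compared, 9 were lower and none higher with miR-25, beside 22.6% and 19.3% of all genes, with a median log2 fold change of -0.91, close to the -0.94 of the 4 troponin genes. Myom2, an M-band protein, was lowest at -3.53, and Myl7 and Myl4 were at -0.70 and 0.12. With miR-106b 2 were higher and 2 lower (median 0.05), beside 11.9% and 12.7% of all genes, and with miR-93 also 2 and 2 (median -0.10), beside 15.1% and 15.6%. In both cases Myl7 and Myl4 were the higher genes.

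Of 8 other thin filament genes compared, 1 was higher and 2 were lower with miR-25 (median -0.02), near the 19.3% and 22.6% of all genes. With miR-106b 1 was higher and 3 were lower (median -0.21), beside 11.9% and 12.7% of all genes, and with miR-93 1 was higher and 4 were lower (median -0.50), beside 15.1% and 15.6%. Lmod2, a leiomodin that builds the ends of thin filaments, had RPKM values of 167, 117, 52.0 and 78.3 in the control, miR-106b, miR-93 and miR-25 libraries. Actc1, cardiac actin, was at 7073, 5034, 2733 and 4953, and Acta1, skeletal actin, at 587, 471, 170 and 738. For these actins, the miR-93 library was the lowest, where troponin I was above the control. The median of -0.02 with miR-25 stands between genes on both sides of the control. On the log2 scale Lmod2 (-1.09), Actc1 (-0.51), Tpm1 (-0.25) and Tmod1 (-0.17) were below it. Tpm2 (0.43), Tpm4 (0.35), Acta1 (0.33) and Tpm3 (0.14) were above it. The tropomyosins (Tpm genes) and Tmod1 were named after their values were seen.

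Kinases, phosphatases and β-adrenergic genes that act on cardiac troponin I mostly lay inside the 1.3-fold limit with miR-106b and miR-93, and less so with miR-25. Of 16 compared, 1 was higher and none lower under miR-106b, 5 were higher and none lower under miR-93, and 4 were higher and 3 lower under miR-25 (medians 0.11, 0.11 and -0.02). The shares of all genes were 11.9% higher and 12.7% lower, 15.1% and 15.6%, and 19.3% and 22.6% in the same order, so the counts with miR-25 were near those of all genes. Stk4, the Hippo kinase MST1, was higher with miR-25 (log2 1.10), Prkce, a protein kinase C, under both mimics of the shared seed (miR-106b 0.81, miR-93 0.93), and Adrb1, the β1-adrenergic receptor, with miR-93 (0.93). Levels of Prkce and Adrb1 were low, at RPKM 1.46 to 3.56 and 2.99 to 5.70 over the libraries. Prkaca and Prkacb, catalytic subunits of protein kinase A, were at -0.55 and 0.41 with miR-25. Both were named after their values were seen. Of 13 heart transcription factors compared, none was higher and 1 was lower with miR-106b, 6 were higher and none lower with miR-93, and 2 were higher and 3 lower with miR-25 (medians 0.15, 0.08 and 0.02), the last near the 19.3% and 22.6% of all genes. For miR-106b the shares of all genes were 11.9% and 12.7%, and for miR-93 15.1% and 15.6%. Nkx2-5 was at 0.33, 0.52 and 0.88 with the 3 mimics in this order, while Hand2 was at 0.37, 0.56 and -0.94 and Hopx at 0.02, -0.08 and -0.90.

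Genes listed as markers of other cells differed between the libraries too. Of all genes, 19.3% were higher and 22.6% lower in the miR-25 comparison, 15.1% higher and 15.6% lower in that of miR-93, and 11.9% higher and 12.7% lower in that of miR-106b, which is the background for each marker count given here. The 4 smooth muscle markers summed to 745 RPKM in the control, 686 and 583 in the miR-106b and miR-93 libraries, and 2051 in the miR-25 library, where 4 of 4 were higher, with Tagln at 1.45, Cnn1 at 1.65 and Acta2 at 1.43 on the log2 scale. The 9 fibroblast markers summed to 846, 662, 768 and 349 RPKM, and 7 of 9 were lower with miR-25, with Col1a2 at -1.87, Tcf21 at -1.62 and Dcn at -0.79, while 1 was higher, Lum at 0.87, and Fbln2 was at 0.35, inside the limit. Lum and Fbln2 were named after their values were seen. Fibroblast markers were also lower with the other mimics, 5 of 9 with miR-106b (median -0.39) and 4 of 9 with miR-93 (median -0.10), and none was higher. Dcn was further below the control there, at -1.35 and -1.47. Of the 11 heart muscle markers, which overlap the filament lists, 9 were lower and 1 higher with miR-25 (median -0.53), 6 lower and 1 higher with miR-93 (-0.51), and 4 lower and none higher with miR-106b (-0.25). Among these, Tcap was at -1.03, -1.98 and -0.99 and Csrp3 at -0.31, -1.44 and -0.91 (miR-106b first, then miR-93, then miR-25). Which cells these marker values come from, and the part of other cells in the troponin values, was not tested. Relative to the median heart muscle marker, Tnni3 was at -3.94 with miR-25.

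**Figure D5:**
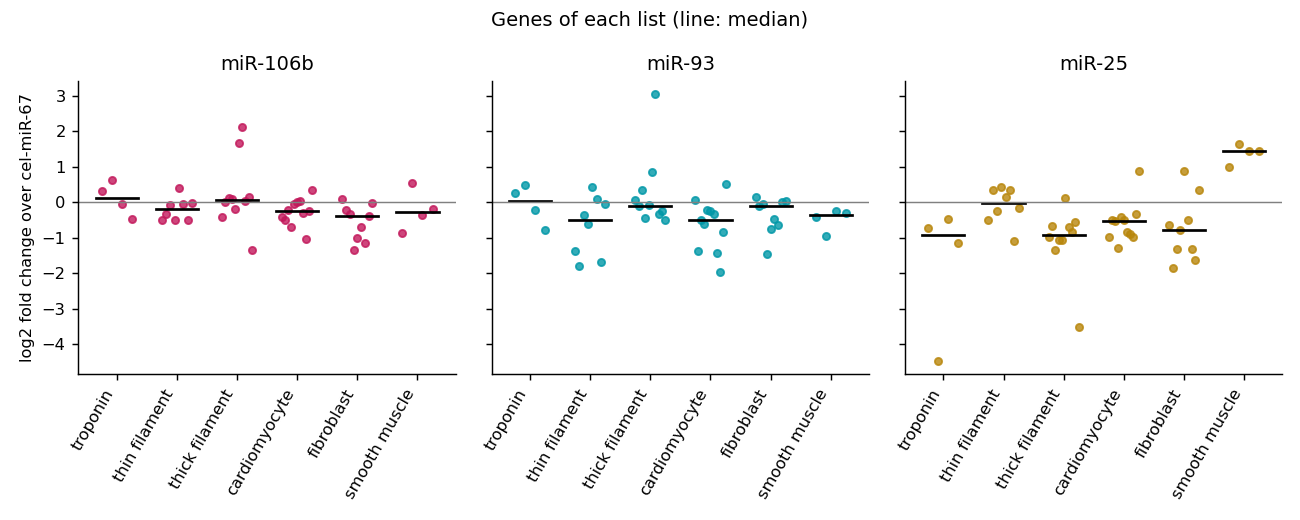
Log2 fold change over cel-miR-67 of the genes of 6 lists with RPKM above 1.0 in both libraries, 1 panel per mimic. Points are genes and lines are medians. With miR-25 the thick filament median is -0.91, the thin filament median -0.02 and the smooth muscle median 1.44. The thin filament genes there lie on both sides of the control.

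Genes with the most similar pattern were sought among 4045 genes with RPKM above 10 in all 4 libraries, by the Euclidean distance of the 3 log2 fold changes, which share the control. No gene came within 1 of Tnni3, and the nearest were Ckm (2.18), the muscle creatine kinase, Mb (2.25), which encodes myoglobin, Art3 (2.26), A930016O22Rik (2.38) and Ndufa5 (2.40), a subunit of respiratory complex I. Their log2 fold changes with miR-25 lay between -2.49 and -2.23, all closer to 0 than that of Tnni3. The RPKM limit of 10 leaves out genes that fell below it with miR-25, such as Tecrl (1.13) and Myom2 (2.94). Only genes with a high control level could thus come near Tnni3, and how far its lack of neighbours follows from this limit was not measured. Around Tnni1, 2365 genes lay within 1. The nearest were Apopt1 (0.07), Hspd1 (0.07), a mitochondrial chaperone, AC131885.1 (0.08), Smc2 (0.12), a condensin subunit, and Cox5a (0.14), a subunit of cytochrome c oxidase. Tnnt2 was closest to Arpc5l (0.02), Gosr2 (0.03) and Alyref (0.05), with 3303 genes within 1, and Tnnc1 to Murc (0.19), A4galt (0.20) and Col6a2 (0.22), with 570.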

How the data were processed

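RNA of 4 neonatal rat cardiomyocyte cultures, 1 per mimic, was sequenced as single reads of 50 bases. Per the study's methods and the submitters' processing notes, the authors trimmed the reads with Cutadapt, aligned them to Rnor 6.0 with STAR 2.7 and turned rounded gene counts into RPKM values by means of edgeR. The counting program is not given in the sources used here. The deposited RPKM values of the whole series equal those of each sample.

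Members and lists were chosen with earlier results of these data known. Each read adds a fixed RPKM step, so whole reads were recovered for 15730 of 15731 genes. In a check on reads drawn from the recovered counts, recovery was exact for 96.0% of 15724 genes and for all 4 troponin genes. That check covers the recovery step and does not test the implied library sizes. Intervals are Clopper-Pearson intervals at 95%, and for the change of the troponin I ratio conditional exact intervals. In a check with known changes they held the truth in 94.9%, 95.1% and 94.6% of genes in the miR-106b, miR-93 and miR-25 comparisons. This check concerns counting error only, and does not test differences between cultures or the implied library sizes. Further genes named are all other troponin genes, the pairs, the 3 largest changes of each list among genes above RPKM 1.0 in all libraries, and the nearest patterns (5 each for troponin I, 3 for the others). Tecrl was named after its value was seen. The 176 symbols listed more than once were left out of lists and neighbours. Alternatives were pseudocounts of 0.1 and 1 RPKM, other scalings, reads in place of RPKM, and other cutoffs. Calculations ran in Python 3.11.15 with pandas 2.3.3, scipy 1.17.1 and numpy 2.4.6, and plots were drawn with matplotlib 3.10.9.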

Additional observations from a re-analysis of the deposited data

Results flagged for a closer look

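Among the genes named above with RPKM above 1.0 in all libraries, those that lay past 1.3-fold in opposite directions with 2 mimics are given here. Each mimic is 1 library, so these differences were not tested. Tnni3 was above the control with miR-106b and miR-93 and below it with miR-25, with log2 differences of -5.10 (miR-25 over miR-106b) and -4.96 (miR-25 over miR-93). Myl7 (-2.81 and -3.74) and Slc2a1 (-1.50 and -1.28) showed the same split for the same 2 comparisons. Smc2 differed by -1.21 for miR-25 over miR-106b. For miR-25 over miR-93 the differences were -2.97 for Ckm, -2.94 for A930016O22Rik, -1.50 for Hand2 and 2.61 for Cnn1, and Cnn1 also differed by -1.49 for miR-93 over miR-106b. Tpm2 and Lum, named after their values were seen, were below the control with miR-106b and miR-93 and above it with miR-25. Their log2 fold changes, in this order, were -0.51, -0.63 and 0.43 for Tpm2 and -1.01, -0.76 and 0.87 for Lum.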

How the results depend on the processing

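No paired analysis was possible because each mimic has 1 library, and no replicate could be left out. The 12 log2 fold changes of the troponin genes stayed inside their counting intervals with a pseudocount of 0.1 or 1 RPKM and when centred on the median gene. Scaling the listed genes to the same summed RPKM takes out log2 shifts of -0.034 (miR-106b), -0.146 (miR-93) and -0.237 (miR-25). In this order it gave 0.35, 0.42 and -0.50 for Tnni1, 0.66, 0.64 and -4.23 for Tnni3, -0.01, -0.07 and -0.24 for Tnnt2, and -0.45, -0.63 and -0.90 for Tnnc1. Centring on the median heart muscle marker gave 0.56, 0.78 and -0.21 for Tnni1, 0.88, 1.00 and -3.94 for Tnni3, 0.20, 0.30 and 0.05 for Tnnt2, and -0.23, -0.27 and -0.61 for Tnnc1, which turned the sign of Tnnt2 with all 3 mimics, since the marker median lay below Tnnt2 in each comparison. The log2 ratio of Tnni1 to Tnni3 in reads was 1.43, 1.12, 1.21 and 5.16 in the control and in the miR-106b, miR-93 and miR-25 libraries, which differs from the ratio per length by the gene lengths alone.

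Without a limit on RPKM, 2 of the other troponin genes had a value above 0 in all libraries, where none passed the limit of 1.0. Over all genes, a cutoff of 1.5-fold left 588 higher and 647 lower genes (miR-106b), 781 higher and 942 lower (miR-93), and 1189 higher and 1538 lower (miR-25), and a cutoff of 2-fold left 139 and 150, 192 and 289, and 360 and 561. At 2-fold, Tnni3 and Tnnc1 with miR-25 were the troponin values still past the limit. Depth was ample for the 4 genes and limits Tnnt1, Tnnt3 and Tnnc2 in the control.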

Other observations

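Of the troponin genes, Tnni3 and Tnnt1 are neighbours on the rat genome, as are Tnni1 and Tnnt2, and their neighbours in the gene order of GRCr8 can be read in the same libraries. On chromosome 1, Tnni3 is followed by Tnnt1. The nearest listed gene before Tnni3, Dnaaf3, stood at 0.244, 0.483, 0.391 and 0.365 RPKM in the control, miR-106b, miR-93 and miR-25 libraries, and Syt5 before it at 1.16, 1.94, 1.69 and 2.60. Ppp1r12c, the nearest listed gene after Tnnt1, stood at 18.2, 19.9, 17.5 and 17.5. None of these shared the low level of Tnni3 with miR-25, and Tnnt1 itself was as low in the control as with miR-25.

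On chromosome 13, Tnni1 and Tnnt2 flank Lad1, which stayed between 0.315 and 0.456 RPKM in all 4 libraries. Csrp1 and Phlda3, before Tnni1, were at 0.34 and 0.75 on the log2 scale with miR-25, where Tnni1 was at -0.74. On chromosome 16, Nisch, the nearest listed gene before Tnnc1, was at -0.03, -0.07 and -0.13 on the log2 scale (miR-106b, then miR-93, then miR-25), where Tnnc1 was at -0.48, -0.78 and -1.14. Sema3g, the nearest listed gene after Tnnc1, had 0.116, 0.0442, 0.0673 and 0.0289 RPKM in the control, miR-106b, miR-93 and miR-25 libraries, and Stab1, before Nisch, had 0.862, 0.357, 0.425 and 0.182. Both were below RPKM 1.0 throughout and, like Tnnc1, lower than the control with every mimic. The better expressed neighbours further out did not share this. Nt5dc2, before Stab1, was at 0.57, 0.97 and -0.25 on the log2 scale (miR-106b, then miR-93, then miR-25). After Sema3g, Phf7 was at 0.28, 0.78 and 0.85, and Bap1 at 0.30, 0.32 and -0.01. These neighbours were named after their values were seen.

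Markers of further cell types were low in all libraries. The 6 endothelial markers matched summed to between 4.04 and 5.32 RPKM, with Tek at 2.09, 1.51, 1.85 and 1.02 and Kdr at 1.26, 1.73, 2.18 and 2.29 in the control, miR-106b, miR-93 and miR-25 libraries. The 6 macrophage markers summed to 12.2, 12.2, 14.0 and 6.34 RPKM in the same order, with C1qa at 3.87, 4.43, 4.86 and 1.26, Csf1r at 2.76, 2.62, 2.92 and 1.53, and Cd14 between 1.41 and 1.77.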
